A study of Mus musculus with 28 samples.

Results

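The genes described here build the extracellular matrix of the liver or cut it. They were taken from the deposited gene table by symbol: every gene named Col, Mmp, Timp or Adamts with a number, every laminin chain (Lama, Lamb, Lamc), every ADAMTS-like gene and the 5 lysyl oxidases. This gave 110 of 18182 genes. Of these, 109 encode matrix proteins, their proteases, inhibitors or cross-linking enzymes. The remaining member, Col4a3bp, encodes a ceramide transfer protein and shares only the first letters of its name with the collagens.

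RNA was sequenced from 28 mouse liver libraries, 14 of hepatocellular carcinoma tissue (Tu) and 14 of the tissue beside a tumour (Pe). Every animal carried c-Myc and Alb-cre transgenes, the second being Cre recombinase under the albumin promoter, which is active in hepatocytes, and no library without the transgenes was analysed here. Titles split the libraries into 11 Tu_F, 11 Pe_F, 3 Tu_M and 3 Pe_M; the letters F and M are not expanded in the labels, and neither strain nor age is given there. Each tumour shares a title code with 1 peritumour library, which makes 14 pairs, named here by letter and replicate number. The codes have 2 styles, the first in 12 libraries (pairs F 1 to F 3 and all M pairs) and the second in 16.

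Collagens are helical proteins of several families. Fibrillar collagens form the tensile fibres of scar and stroma, collagen IV and laminins form the sheet of basement membranes, and smaller collagens decorate fibres or span cell membranes. Matrix metalloproteinases and ADAMTS proteases cut these proteins, TIMPs block the metalloproteinases, and lysyl oxidases cross-link collagen and elastin. In the normal liver, stellate cells and portal fibroblasts are known as the main source of fibrillar collagen, and the sinusoids lack a continuous basement membrane.

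Library totals were 14777566 to 17576920 estimated counts. Levels are given as CPM, estimated counts per 1000000 of the library total, and levels of different genes are compared only as TPM, which takes transcript length into account. The test was edgeR's quasi-likelihood test with Benjamini-Hochberg adjustment over all 14117 genes that passed the filter on low counts, and a gene is called at an adjusted p under 0.05. Of the 110 members, 89 passed that filter. Those that did not were Adamts8, Adamts17, Adamts19, Adamts20, Col2a1, Col6a4, Col9a2, Col9a3, Col10a1, Col17a1, Col19a1, Col22a1, Col24a1, Col25a1, Col26a1, Col28a1, Mmp1b, Mmp10, Mmp16, Mmp20 and Mmp21. Among these, Col24a1, a fibrillar collagen, reached 10.6 CPM in the F 2 tumour and was at 0 in 10 libraries.

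Tumours F 2 and F 5 stood apart from the other 12 for most of these genes, and this bears on many results below. In each of these pairs 77 of the 89 members were higher in tumour than in the matched peritumour tissue. The median member was 1.29 higher on the log2(CPM + 0.5) scale in pair F 2 and 1.09 higher in pair F 5. In the other 12 pairs this median ran from -0.89 in pair M 2 to 0.03 in pair F 3. The median of all tested genes was 0.35 in pair F 2 and 0.01 in pair F 5. With TMM scaling, which centres each library on the bulk of its genes, the medians over members were 0.91 and 1.05, and those over all genes were -0.02 and -0.01.

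**Figure D1:**
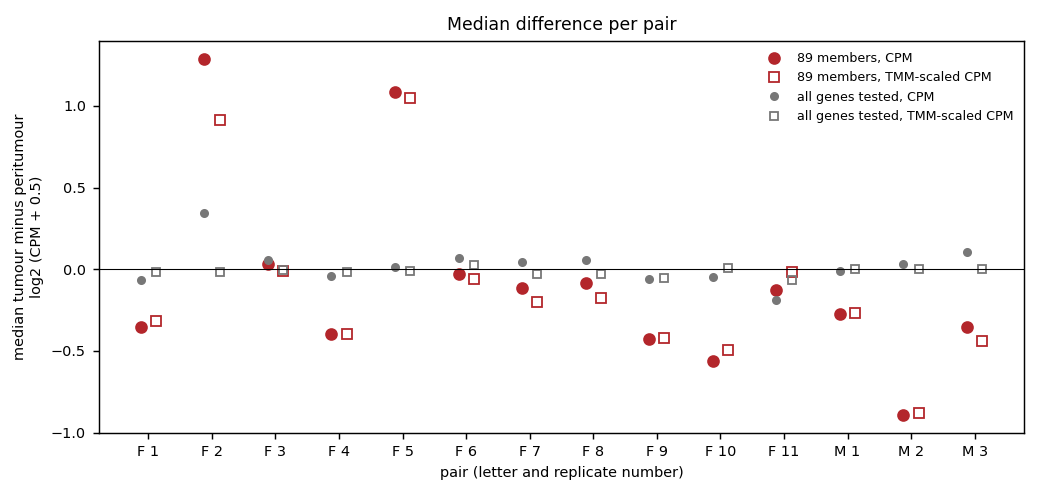
Median tumour minus peritumour difference in each of the 14 pairs, on the log2(CPM + 0.5) scale, over the 89 tested members (red) and all 14117 tested genes (grey), before (filled) and after (open) TMM scaling. Pairs F 2 and F 5 lie at 1.29 and 1.09 for the members before scaling, and the other 12 pairs lie between -0.89 and 0.03.

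The highest value of all 28 libraries lay in the F 2 tumour for 39 of 89 members, against 30.3% of all tested genes, and in the F 5 tumour for 16 members, against 8.10%. After TMM scaling these were 28 and 19 members, against 14.5% and 6.22% of all genes. Both tumours had 48 or more members over 2-fold above their peritumour library. In pair F 2 there were 51 such members, where 19.2% of all tested genes were that much higher. In pair F 5 there were 48, where 7.46% of all genes were. At the other end, 41 members were over 2-fold lower in tumour in pair M 2 and 29 in pair F 10, against 9.12% and 3.40% of all genes.

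The F 2 tumour also held 2179 CPM of 10 cholangiocyte markers, including 799 CPM of Krt19, against a median of 108 CPM over the tumours and a highest peritumour sum of 350.5 CPM. The F 5 tumour held 283.6 CPM of them. The part of these cells in the matrix values was not tested. In bulk tissue, fewer cells of a type and less RNA per cell cannot be told apart.

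**Figure D2:**
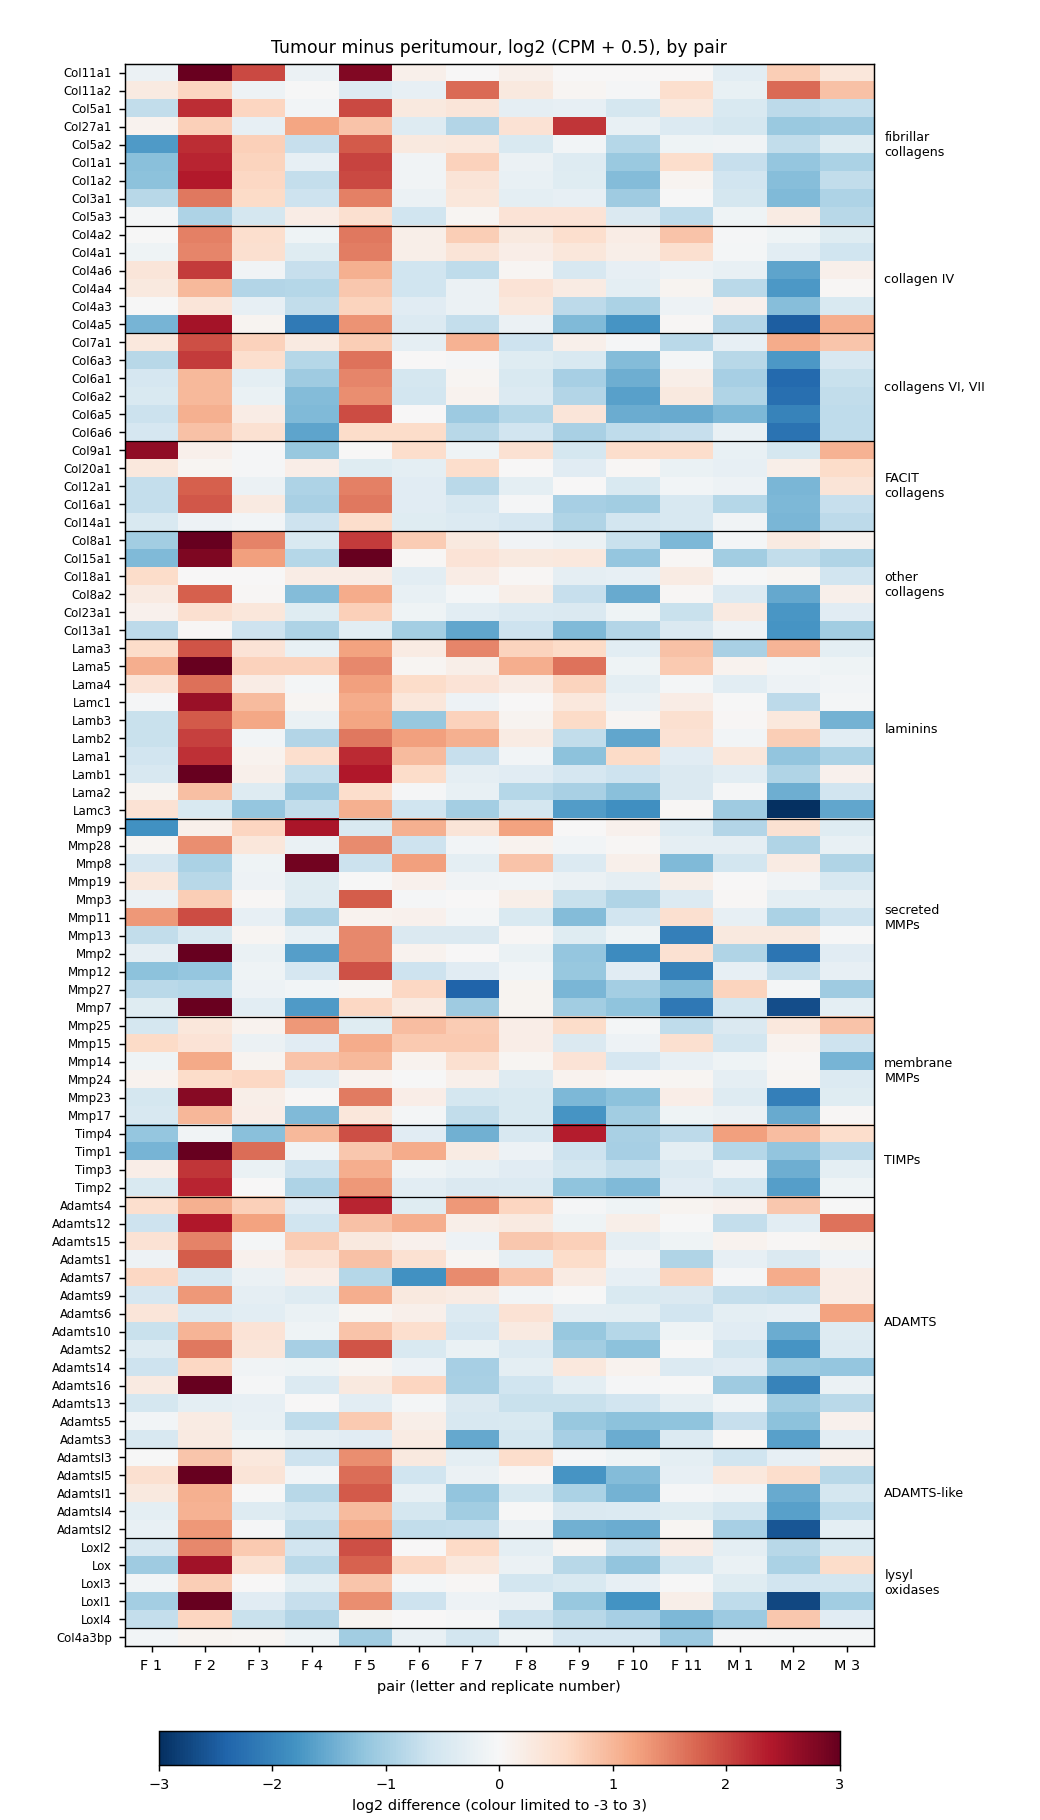
Tumour minus peritumour difference, log2(CPM + 0.5), for 88 of the 89 tested members (lines, grouped by class and ordered by the paired fold change) in each of 14 pairs (columns); red is higher in tumour, blue lower, with the colour limited to -3 to 3. Over all 89 members, 77 were higher in tumour in pair F 2 and 77 in pair F 5, and 66 were lower in pair M 2.

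Between tumour and peritumour tissue with the animal as a block, 6 of 89 members were called lower, near the share of all genes. Only 1 was called higher, a smaller share than that of all genes. In that fit Lama5 rose and Col13a1, Col14a1, Lamc3, Adamts3, Adamts13 and Col4a3bp fell, 7 of 89 members, where 11.5% of all genes tested were called (5.59% higher, 5.91% lower). Adamts3 had passed the filter through peritumour libraries alone, as given below. Of the 89, 25 had an unadjusted p under 0.05, against 28.1% of all genes. Without the block, Lamc3 and Col13a1 were called, both lower, where 1.05% of all genes were (0.808% higher, 0.241% lower). The median log2 fold change over the members was -0.17 with the block and -0.09 without it, and over all genes -0.01 and 0.01. Within the second code style alone, the paired fit called Lama5 higher and Col13a1 and Col4a3bp lower, 3 of 79 tested. Within the first style alone it called 0 of 85 (edgeR), with 6 at an unadjusted p under 0.05. No share over all genes is given for these smaller fits, so their counts are not read as a result about the members. Tumour was lower in at least 10 of 14 pairs for 33 members, 37.1%, against 20.1% of all genes. It was higher in at least 10 pairs for 4 members, 4.49%, against 24.2% of all genes.

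Pairs F 2, F 5 and F 6, which earlier results of these data had singled out for genes of blood cell precursors, were left out together as an alternative. F 2 and F 5 are also the pairs in which matrix genes were highest in tumour. Leaving them out, here or in later fits, therefore removes the largest rises by construction. The paired fit then called 2 members higher, Lama5 and Adamts7, and 27 lower of 88 tested, where 14.9% of all genes were called (7.01% higher, 7.87% lower). Adamts7 had its largest falls in pairs F 6, F 5 and F 2 (-1.82, -0.87 and -0.47 on the log2(CPM + 0.5) scale). Leaving these pairs out therefore favours its call by construction. The fit without the block called 6, all lower, where 3.29% of all genes were (1.68% higher, 1.61% lower). The median log2 fold change with the block in these 11 pairs was -0.42 over members and -0.02 over all genes.

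**Figure D3:**
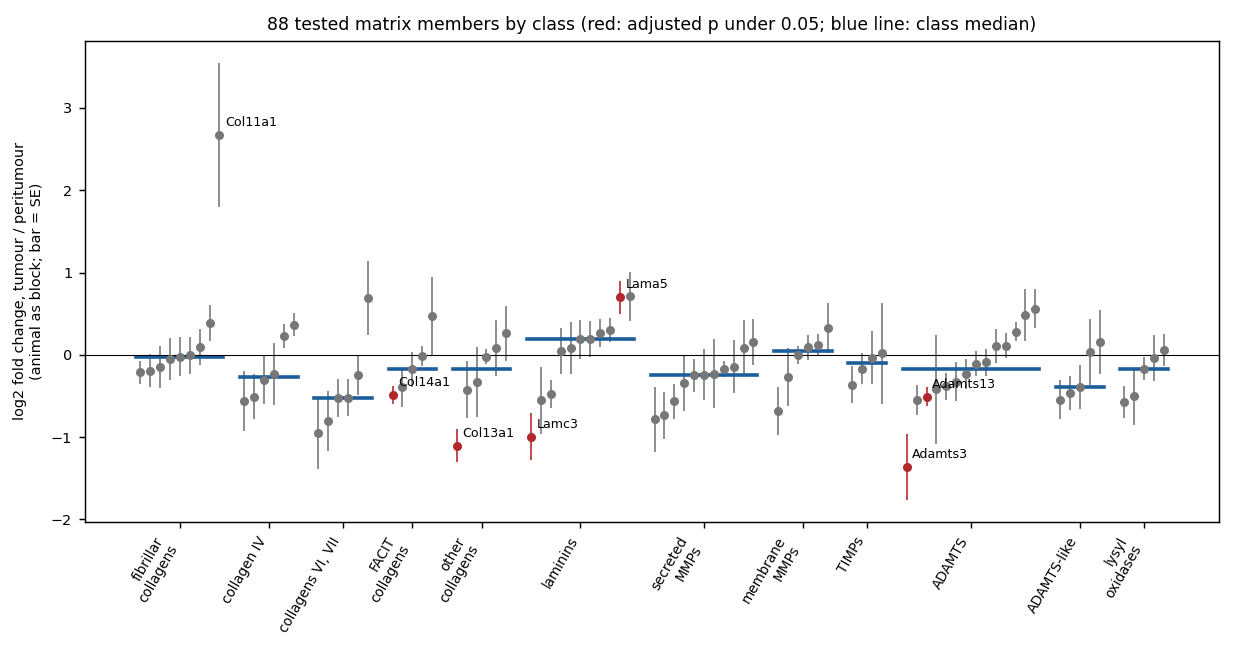
Log2 fold change of tumour over peritumour with the animal as a block for the 88 tested matrix members (Col4a3bp left out), by class; points are estimates, bars 1 SE, blue lines class medians, and red points have an adjusted p under 0.05 (edgeR, 14 pairs). Laminins have the highest class median, 0.19, and collagens VI and VII the lowest, -0.52.

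The collagen IV chains open the account of the basement membrane. Col4a1 and Col4a2, the chains of the common collagen IV network, were the most abundant pair in the class by TPM and were highest in the same tumours. Their genes lie head to head on chromosome 8 and are read from overlapping starts on opposite strands. The RefSeq starts are at 11312826 for Col4a1 (minus strand) and 11312805 for Col4a2 (plus strand) on GRCm38.p6, so both transcripts begin with the same 22 bases, read in opposite directions. The windows are shown because both genes start within them; each holds 250 bases before to 50 after the start, from RefSeq, with the 22 shared bases in capitals (chr8:11312777-11313076 on the minus strand for Col4a1 and chr8:11312555-11312854 on the plus strand for Col4a2).
Col4a1: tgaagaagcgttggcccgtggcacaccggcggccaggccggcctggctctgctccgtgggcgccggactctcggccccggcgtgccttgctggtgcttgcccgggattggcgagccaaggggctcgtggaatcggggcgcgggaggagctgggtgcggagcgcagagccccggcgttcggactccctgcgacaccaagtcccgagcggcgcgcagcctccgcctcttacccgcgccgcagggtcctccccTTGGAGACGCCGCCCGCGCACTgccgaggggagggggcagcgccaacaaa
Col4a2: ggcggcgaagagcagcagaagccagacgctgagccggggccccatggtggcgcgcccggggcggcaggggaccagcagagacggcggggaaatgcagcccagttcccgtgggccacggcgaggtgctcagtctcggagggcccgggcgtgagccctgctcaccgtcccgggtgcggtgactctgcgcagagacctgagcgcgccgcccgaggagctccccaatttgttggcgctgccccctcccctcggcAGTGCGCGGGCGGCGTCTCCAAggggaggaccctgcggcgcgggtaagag

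Col4a1 levels ran from 153 CPM through a median of 257 to 685 in Tu_F and from 153 through 203 to 237 in Pe_F. In Tu_M they were 193, 210 and 120 CPM and in Pe_M 199, 261 and 182 CPM. The F 5 tumour, at 685 CPM, and the F 2 tumour, at 584 CPM, lay above all others, and the ranges of tumour and peritumour overlapped. Col4a2 followed, with 415 CPM in the F 5 tumour and 318 CPM in the F 2 tumour. Tumour was higher for both genes in 9 of 11 F pairs and lower in all 3 M pairs. With the block, Col4a1 had a log2 fold change of 0.23 ± 0.14 (SE) and Col4a2 one of 0.37 ± 0.14, and neither was called (adjusted p = 0.304 and 0.0916, edgeR). The ratio of Col4a1 to Col4a2 by TPM stayed between 1.48 and 2.10 over the 28 libraries while Col4a1 itself spanned 5.72-fold.

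Of the 4 other chains, Col4a3 and Col4a4 are also neighbours, on chromosome 1, as are Col4a5 and Col4a6 on X. These chains form the collagen IV of kidney and other specialised membranes. No collagen IV gene was called in edgeR or DESeq2 over all pairs, with 1 at an unadjusted p under 0.05 in edgeR's paired fit, and the class median log2 fold change was -0.27 with the block.

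Laminins are joined from an alpha, a beta and a gamma chain, and all 11 chain genes passed the filter. Lama5 rose and Lamc3 fell with the block in edgeR, and the class median of 0.19 was the highest of the 12 classes. DESeq2 also called Lama2, lower (-0.48), in the paired design. Lama5, the alpha chain of mature vascular and epithelial basement membranes, lies on chromosome 2 at 180176373 to 180227726. Its level ran from 36.7 CPM through a median of 67.5 to 375 in Tu_F and from 22.5 through 40.4 to 55.3 in Pe_F. Tu_M measured 47.0, 57.6 and 42.1 CPM and Pe_M 43.5, 60.7 and 46.0 CPM. The F 2 tumour was highest at 375 CPM, the F 5 tumour second at 115 CPM, and tumour was higher in 10 of 11 F pairs and in 1 of 3 M pairs.

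The log2 fold change of Lama5 was 0.70 ± 0.20 (SE) with the block (adjusted p = 0.0330, edgeR) and 0.82 ± 0.23 without it (adjusted p = 0.0641, edgeR). Its call under the block held in 9 of 14 fits that each left out 1 pair, and was lost without F 1, F 5, F 8, F 9 or F 11. Without the F 2 pair the paired log2 fold change was still 0.57, and without pairs F 2, F 5 and F 6 it was 0.54, called in both.

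Lamc3, a gamma chain, lies on chromosome 2 at 31886934 to 31946535. It ran from 3.15 CPM through 4.42 to 6.35 in Tu_F and from 2.40 through 8.12 to 16.4 in Pe_F, with 5.64, 1.34 and 1.41 CPM in Tu_M and 12.4, 16.4 and 5.12 CPM in Pe_M. Tumour was lower in 11 of 14 pairs, all 3 M pairs among them, and the F peritumour range enclosed that of the F tumours. The log2 fold change was -0.99 ± 0.29 (SE) with the block (adjusted p = 0.0336) and -1.09 ± 0.27 without it (adjusted p = 0.0456, edgeR). The call under the block held in 8 of 14 fits that left out 1 pair, and was lost without F 3, F 7, F 8, F 9, F 10 or M 3. Without the block it held in 2 of 14.

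Several other laminin chains were high in the F 2 and F 5 tumours. Lamb1, the common beta chain, measured 153 CPM in the F 2 tumour and 70.7 CPM in the F 5 tumour, and at most 23.1 CPM in the other F tumours. Lamc1, the gamma chain that most laminins share, reached 314 and 245 CPM in the same tumours, against a Tu_F median of 63.1 CPM. Lama1, an alpha chain of embryonic membranes, was at 20.9 and 17.1 CPM there. These 3 genes were not called in either fit over all pairs, with adjusted p from 0.335 to 0.934 in the paired one (edgeR). Without pairs F 2, F 5 and F 6, which removes its largest rises, Lamb1 fell in tumour with the block, by 0.41 on the log2 scale.

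**Figure D4:**
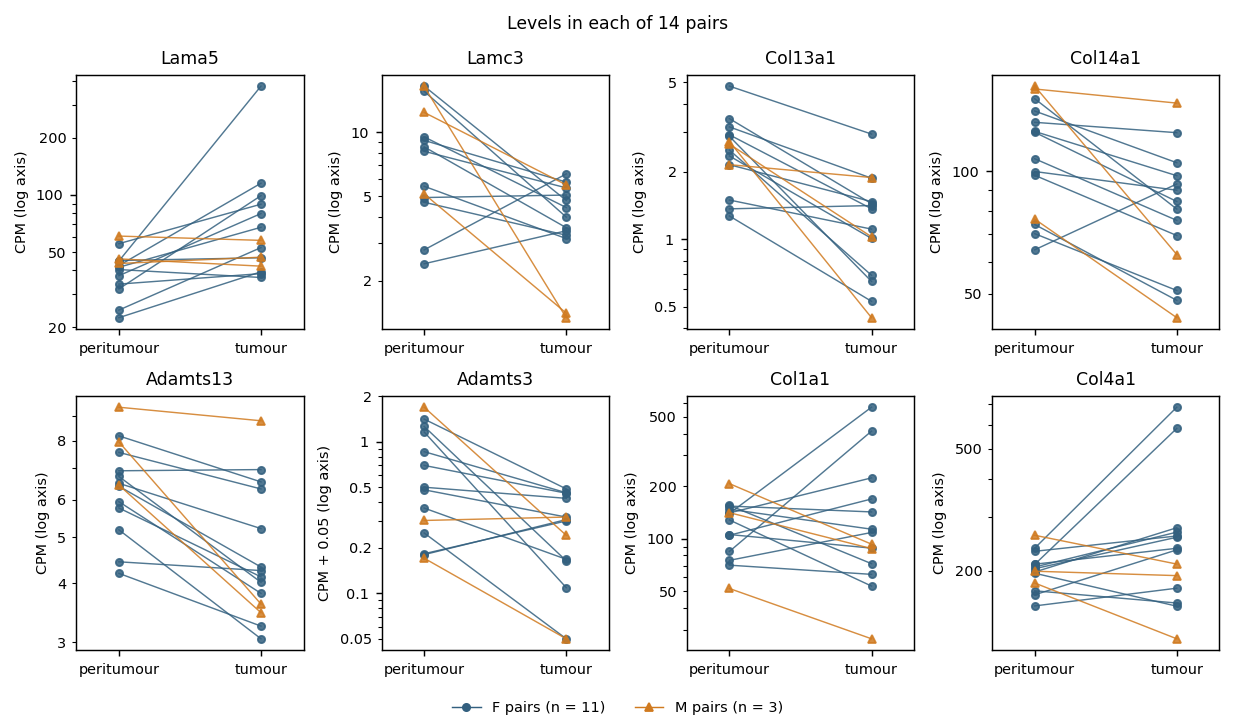
CPM on a log axis in the peritumour and tumour library of each pair (lines; blue circles F, 11 pairs; orange triangles M, 3 pairs) for the 6 matrix members called with the animal as a block and for Col1a1 and Col4a1; 0.05 was added to Adamts3. Col13a1, Col14a1 and Adamts13 go down in 13 of 14 pairs each, while Col1a1 climbs steeply in pairs F 2 and F 5 and goes down in 9 pairs.

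Fibrillar collagens, the fibre-forming group, had no member called among the 9 tested in either edgeR fit. Of these, 2 had an unadjusted p under 0.05 without the block and 1 with it. DESeq2 called Col11a1, higher, without the block, a gene that passed the filter only through 3 tumours, as given below. Col1a1 and Col1a2 encode the chains of type I collagen and Col3a1 that of type III. By TPM, Col3a1 was the most abundant of the class, with a median of 49.2 in tumour and 59.0 in peritumour tissue, and Col1a1 stood at 25.8 and 36.0. Col1a1, on chromosome 11 at 94936224 to 94953042, ran from 53.4 CPM through 113 to 567 in Tu_F and from 70.4 through 128 to 155 in Pe_F. It measured 87.6, 92.9 and 26.6 CPM in Tu_M and 141, 207 and 51.7 CPM in Pe_M. Only the F 5, F 2 and F 3 tumours, at 567, 413 and 223 CPM, exceeded every peritumour library. Tumour was higher in 5 of 11 F pairs and in none of the M pairs.

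The paired log2 fold changes were -0.05 ± 0.26 (SE) for Col1a1 and -0.20 ± 0.20 for Col3a1 (adjusted p = 0.914 and 0.554, edgeR). The spread between pairs was therefore larger than any common shift. The chains kept their proportions all the same: the Col1a1 to Col1a2 ratio by TPM lay between 0.848 and 1.41 over 28 libraries, while Col1a1 spanned 21.3-fold. Col11a1, a minor chain that nucleates fibres, was nearly silent, with a Pe_F maximum of 0.194 CPM and a Tu_F median of 0.0588 CPM. It measured 3.40, 2.24 and 2.92 CPM in the tumours of F 2, F 3 and F 5. It was chosen for its place outside the other points after its values were seen, and was not called with the block (adjusted p = 0.0627, edgeR). Col11a1 passed the filter on low counts through those 3 tumours alone. That selection favours a rise, so the DESeq2 call is no independent support for one.

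Collagen VI forms beaded filaments around cells, and collagen VII anchors basement membranes. None of the 6 tested genes of this group was called over all pairs in edgeR or DESeq2, with 4 at an unadjusted p under 0.05 in edgeR's paired fit. Their median log2 fold change with the block was -0.52, the lowest of any class. Col6a1 ran from 17.0 CPM through 27.6 to 88.5 in Tu_F and from 18.8 through 33.9 to 68.7 in Pe_F, with 21.0, 13.5 and 11.3 CPM in Tu_M and 42.2, 69.7 and 18.2 CPM in Pe_M. Tumour was lower in 7 of 11 F pairs and in all M pairs, and the highest value lay in the F 5 tumour. Its log2 fold change was -0.52 ± 0.22 (SE) with the block (adjusted p = 0.138, edgeR). Col6a2, the chain beside it on chromosome 10, kept a Col6a1 to Col6a2 ratio by TPM between 1.12 and 1.47.

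Leaving out the F 5 pair alone brought Col6a1, Col6a2 and Col6a5 under the threshold with the block, all lower in tumour. F 5 held the largest rise of all 3 genes, so leaving it out favours such calls by construction. Without pairs F 2, F 5 and F 6, 5 of 6 were called lower, where 7.87% of all genes were. Col6a1 fell by 0.78, Col6a2 by 0.78, Col6a3 by 0.59, Col6a5 by 1.29 and Col6a6 by 1.49 on the log2 scale. Col7a1 was the exception, with an estimate above 0.

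Among the FACIT collagens, which sit on the surface of fibres, Col14a1 made up 83.0% of the class by TPM and fell. It lies on chromosome 15 at 55307694 to 55520803. Its level ran from 48.2 CPM through 84.3 to 124 in Tu_F and from 64.1 through 107 to 151 in Pe_F, with 147, 62.5 and 43.7 CPM in Tu_M and 159, 162 and 76.3 CPM in Pe_M. The tumour library was the lower in 13 of 14 pairs, the exception being F 5, although the ranges overlapped. The log2 fold change was -0.49 ± 0.11 (SE) with the block (adjusted p = 0.0120) and -0.47 ± 0.17 without it (adjusted p = 0.133, edgeR). The paired call held in all 14 fits that left out 1 pair.

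Col13a1, a transmembrane collagen of cell adhesion sites, was low in every library and fell. It lies on chromosome 10 at 61838234 to 61979210. It ran from 0.528 CPM through 1.36 to 2.94 in Tu_F and from 1.27 through 2.49 to 4.80 in Pe_F, with 1.88, 0.447 and 1.02 CPM in Tu_M and 2.15, 2.72 and 2.65 CPM in Pe_M. In the M pairs every tumour lay below every peritumour library, and F 2 was the only pair of 14 with more in the tumour. Its log2 fold change was -1.10 ± 0.20 (SE) with the block (adjusted p = 0.00384), and this call held in all 14 fits without 1 pair. Without the block it was -1.03 ± 0.26 (adjusted p = 0.0490, edgeR) and held in 2 of 14.

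Col18a1, the collagen from which endostatin is cut and one that hepatocytes are known to make, was the most abundant member of all by TPM, with medians of 216 in tumour and 210 in peritumour tissue. It made up 95.3% of its class. Its level ran from 635 CPM through 762 to 1156 in Tu_F and from 633 through 758 to 900 in Pe_F. In Tu_M it measured 824, 729 and 486 CPM and in Pe_M 828, 701 and 723 CPM. The F 2 and F 5 tumours, at 762 and 741 CPM, lay near the medians. Its log2 fold change was -0.02 ± 0.09 (SE) with the block (adjusted p = 0.894, edgeR). Col15a1, its relative in vascular basement membranes, was high in those tumours: it reached 93.5 and 94.4 CPM in the F 2 and F 5 tumours against a Pe_F median of 15.2 CPM, with tumour higher in 8 of 11 F pairs and in no M pair. It was not called (0.08 ± 0.34 with the block, adjusted p = 0.902, edgeR).

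The proteases that cut the matrix begin with the secreted matrix metalloproteinases. None of the 11 tested was called in edgeR, with 2 at an unadjusted p under 0.05 with the block; DESeq2 called Mmp12, lower, in the paired design. Their median log2 fold change with the block was -0.24. Of these genes, 9 of the 15 in the table lie side by side on chromosome 9 between 7272514 and 7707119, and 6 of those 9 passed the filter. In RefSeq windows of 250 bases before to 50 after a start, the letters TGANTCA, the AP-1 motif, were found on either strand for 7 of the 17 metalloproteinase genes with a window, all in this cluster. Among all 27025 genes with a window, 8.97% hold the motif in at least 1 window. The letters TATAAA were found for 9 of the 17, against 15.7% of all genes. A pair of cluster genes is shown for these letters, in capitals: Mmp13, a collagenase, with 1 match of each (chr9:7272264-7272563, plus strand), and Mmp7, matrilysin, with 1 AP-1 match and 2 TATAAA matches (chr9:7691840-7692139, plus strand), both on GRCm38.p6.
Mmp13: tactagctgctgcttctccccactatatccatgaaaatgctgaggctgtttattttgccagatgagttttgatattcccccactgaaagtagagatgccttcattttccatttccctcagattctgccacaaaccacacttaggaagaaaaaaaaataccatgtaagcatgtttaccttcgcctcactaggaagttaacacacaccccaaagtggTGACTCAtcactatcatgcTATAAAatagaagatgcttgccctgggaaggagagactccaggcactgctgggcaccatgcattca
Mmp7: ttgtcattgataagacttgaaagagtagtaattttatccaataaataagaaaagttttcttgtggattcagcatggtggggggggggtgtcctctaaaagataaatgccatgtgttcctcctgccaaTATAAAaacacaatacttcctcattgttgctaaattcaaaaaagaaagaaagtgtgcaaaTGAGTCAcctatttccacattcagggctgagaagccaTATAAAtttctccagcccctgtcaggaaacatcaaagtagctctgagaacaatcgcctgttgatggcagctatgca

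Levels differed between the genes of the cluster. Mmp7, an enzyme known from bile duct epithelium, measured 15.6 CPM in the F 2 tumour and at most 2.68 CPM in the other F tumours; Pe_F ran from 0.903 through 2.44 to 8.52 CPM. In Tu_M it stood at 1.34, 0.255 and 0.640 CPM and in Pe_M at 2.21, 4.30 and 0.903 CPM. In 10 of 14 pairs the tumour had less. Its log2 fold change was -0.78 ± 0.40 (SE) with the block (adjusted p = 0.206, edgeR), and without the F 2 pair it was -1.03 and called. F 2 held the largest rise of Mmp7, so leaving that pair out favours the call by construction. The 10 cholangiocyte markers were themselves highest in the F 2 tumour, as given above.

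Mmp13 was no higher in the F 2 tumour, at 5.39 CPM, than in its peritumour tissue, at 7.53 CPM. Mmp12, macrophage elastase, lay between Mmp13 and Mmp1b and was highest in the F 5 tumour at 49.0 CPM. It ran from 4.82 CPM through 10.9 to 49.0 in Tu_F and from 7.38 through 14.9 to 40.6 in Pe_F, with 32.2, 11.0 and 17.9 CPM in Tu_M and 38.5, 18.5 and 21.3 CPM in Pe_M. All pairs but F 5 had less in the tumour. The paired log2 fold change was -0.56 ± 0.22 (SE; adjusted p = 0.0966, edgeR), and it was -0.73 and called without F 5. Leaving out the only pair with a rise favours that call by construction. Of 6 Kupffer cell markers, 5 were called lower with the block, where 5.91% of all genes were, with summed levels of 98.8 to 627.7 CPM in tumour and 137.6 to 576.6 CPM in peritumour tissue. The 7 markers of monocytes and recruited macrophages summed to 76.1 to 349.4 CPM in tumour and 116.6 to 250.4 CPM in peritumour tissue, and the F 5 tumour was the highest. The part of these cells in Mmp12 was not tested.

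Mmp8 and Mmp9, the collagenase and gelatinase stored in neutrophil granules, were high in both tissues of some animals. Mmp9 measured 11.4 CPM in the F 2 tumour and 10.2 CPM beside it, 19.2 and 26.4 CPM in pair F 5, and 23.8 and 11.1 CPM in pair F 6. In pair F 4 it was at 15.1 CPM in the tumour and 2.35 CPM beside it. In the other 10 pairs it did not exceed 5.48 CPM in either tissue. Mmp8 was high in the same 7 libraries apart from the F 6 peritumour one, where it was at 3.91 CPM. The summed level of 11 neutrophil and neutrophil precursor markers was 249.5 and 508.6 CPM in the tumour and peritumour tissue of F 2, 467.7 and 763.7 CPM in F 5, and 586.8 and 284.8 CPM in F 6, against medians of 72.4 CPM over tumours and 58.7 CPM over peritumour libraries. In pair F 4 the granule gene Ngp was at 162.5 CPM in the tumour and 9.02 CPM beside it. Neither gene was called (adjusted p = 0.804 for Mmp8 and 0.745 for Mmp9 with the block, edgeR), and the part of these cells was not tested.

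Mmp19, the most abundant secreted member by TPM (29.0 in tumour, 30.6 in peritumour tissue), was lower in tumour in 10 of 14 pairs without a call (-0.17 ± 0.10 with the block, adjusted p = 0.263, edgeR). Mmp2, the gelatinase of mesenchymal cells, reached 64.7 CPM in the F 2 tumour, against a Tu_F median of 11.6 and a Pe_F median of 13.6 CPM. In 9 of 14 pairs it was lower in tumour.

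Membrane-bound metalloproteinases act at the cell surface, and Mmp14, which cuts collagen and activates pro-Mmp2, led them by TPM (40.8 in tumour, 36.7 in peritumour tissue). It ran from 60.8 CPM through 97.9 to 185 in Tu_F and from 53.1 through 85.6 to 112 in Pe_F. Tu_M measured 75.0, 105 and 25.4 CPM and Pe_M 82.7, 103 and 67.3 CPM. The F 5 tumour was highest and the M 3 tumour lowest, and the log2 fold change was 0.09 ± 0.15 (SE) with the block (adjusted p = 0.726, edgeR). None of the 6 tested genes was called in edgeR or DESeq2, with 1 at an unadjusted p under 0.05 in edgeR's paired fit.

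ADAMTS proteases process procollagens, proteoglycans and clotting factors. With the block, 2 of 14 tested fell in edgeR, where 5.91% of all genes did. DESeq2 also called Adamts5, lower (-0.55), in the paired design. Adamts13, which cuts von Willebrand factor and is known from stellate cells, lies on chromosome 2 at 26973416 to 27009628. It ran from 3.05 CPM through 4.25 to 6.95 in Tu_F and from 4.19 through 6.41 to 8.18 in Pe_F, with 8.81, 3.61 and 3.46 CPM in Tu_M and 9.41, 7.95 and 6.44 CPM in Pe_M. It was lower in tumour in 13 of 14 pairs, F 2 and F 5 among them, with overlapping ranges. Its log2 fold change was -0.51 ± 0.12 (SE) with the block (adjusted p = 0.0123, edgeR), and the call held in all 14 fits without 1 pair. Without the block it was -0.46 ± 0.15 (adjusted p = 0.107, edgeR).

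Adamts3, which trims procollagen and activates Vegfc, was near the limit of detection, from 0 CPM through 0.257 to 0.439 in Tu_F and from 0.130 through 0.452 to 1.36 in Pe_F. In Tu_M it measured 0.269, 0.191 and 0 CPM and in Pe_M 0.253, 1.65 and 0.120 CPM. Tumour was lower in 11 pairs, and the paired log2 fold change was -1.36 ± 0.41 (SE; adjusted p = 0.0387, edgeR), called in 6 of 14 fits without 1 pair. With no tumour above 0.439 CPM, Adamts3 passed the filter on low counts through peritumour libraries alone. That selection favours a fall, so the call is no independent support for one. Adamts7, the most abundant of the class by TPM, and Adamts1, a versican-cutting enzyme, were not called, with adjusted p = 0.774 and 0.661 with the block (edgeR). Adamts16 measured 14.7 CPM in the F 2 tumour and at most 0.688 CPM in the other tumours.

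Among the ADAMTS-like proteins, which lack the protease domain, Adamtsl2 made up 78.1% of the class by TPM. It ran from 10.3 CPM through 17.4 to 35.7 in Tu_F and from 8.76 through 20.1 to 45.8 in Pe_F. Tu_M measured 21.3, 7.97 and 9.02 CPM and Pe_M 43.1, 49.9 and 11.1 CPM. It was lower in tumour in 11 of 14 pairs, not in F 2 or F 5, and missed the threshold (-0.54 ± 0.24 with the block, adjusted p = 0.143, edgeR). Without pairs F 2, F 5 and F 6, which removes its largest rises, it fell by 0.79 on the log2 scale.

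None of the 4 TIMPs was called over all pairs in edgeR or DESeq2, and none had an unadjusted p under 0.05 in edgeR. Timp2 and Timp3, inhibitors held in the matrix and made by many cells, were each lower in tumour in 11 of 14 pairs, and each was highest in the F 2 tumour, at 156 and 226 CPM. Timp3 otherwise ran between 31.5 and 97.3 CPM in Tu_F and between 27.5 and 114 CPM in Pe_F. Their log2 fold changes were -0.36 ± 0.23 and -0.17 ± 0.19 (SE) with the block (adjusted p = 0.306 and 0.584, edgeR). Without pairs F 2, F 5 and F 6, which removes their largest rises, both fell, by 0.68 and 0.43 on the log2 scale. Timp1, the inhibitor induced in injured liver, ran from 1.12 CPM through 4.36 to 37.8 in Tu_F and from 1.56 through 4.16 to 21.4 in Pe_F. The highest tumour and the highest F peritumour value both came from pair F 5, and it was not called (-0.03 ± 0.33, adjusted p = 0.959, edgeR).

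Lysyl oxidases were also uncalled, 0 of 5 in edgeR with or without the block, where 1 of the 5 had an unadjusted p under 0.05 with the block; DESeq2 called Loxl4, lower, in the paired design. Lox ran from 1.82 CPM through 2.42 to 23.2 in Tu_F and from 1.99 through 4.51 to 7.49 in Pe_F, and its highest values were 23.2 CPM in the F 2 and 16.7 CPM in the F 5 tumour. Loxl2, which also acts on collagen IV, peaked at 81.5 CPM in the F 5 tumour, against a Tu_F median of 18.6 CPM. Loxl1, the elastin cross-linker, peaked at 87.3 CPM in the F 2 tumour. It fell by 0.91 on the log2 scale without pairs F 2, F 5 and F 6, which removes its largest rises. Col4a3bp, which belongs to none of these classes, fell (-0.34 ± 0.09 with the block, SE; adjusted p = 0.0240, edgeR).

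The groups given by the letters were compared next. Between Tu_F and Pe_F, Lama5 rose (1.06 ± 0.24, SE; adjusted p = 0.0491, edgeR), the 1 member called where 0.312% of all genes were (0.262% higher, 0.0496% lower). With the block, Lama5 (0.92 ± 0.20) and Col4a2 (0.53 ± 0.13) rose and Col13a1, Col14a1, Adamts13 and Col4a3bp fell, where 9.84% of all genes were called (4.6% higher, 5.23% lower). This comparison shares its libraries with the one over all pairs. Between Tu_M and Pe_M, edgeR called 0 members and 0 genes with or without the block, and DESeq2 called 0 members. In that comparison the median log2 fold change was -0.61 over members and 0.03 over all genes. Of 89 members, 17 had an unadjusted p under 0.05, against 4.07% of all genes. With the block there were 19, against 9.63% of all genes. Lamc3 (-2.01 ± 0.57), Col6a1 (-1.50 ± 0.45) and Col6a2 (-1.47 ± 0.45) had the smallest unadjusted p.

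The difference between the tumour effects of M and F was tested directly. No member was called (edgeR, with or without the block, where 0 of all genes were called; DESeq2 also 0), with 9 members at an unadjusted p under 0.05, against 3.00% of all genes. With the block there were 15, against 7.09%. Without the block, the median of that difference on the log2 scale was -0.76 over members and 0.005 over all genes. Tu_M against Tu_F called 0 members in edgeR, where 0.0283% of all genes were called. In it 18 members had an unadjusted p under 0.05, against 9.84% of all genes, and DESeq2 called Adamts16, at 0.0672, 0 and 0 CPM in Tu_M and with its highest Tu_F value in the F 2 tumour. Pe_M against Pe_F called 0 members in edgeR and in DESeq2, with 1 member, Lamc3, at an unadjusted p under 0.05, against 1.52% of all genes. With 3 M pairs, all of the first code style, and the F 2 and F 5 tumours on the F side, these comparisons rest on few animals. Within the first code style alone, edgeR also called 0 members in Tu_M against Tu_F, with 21 of 85 at an unadjusted p under 0.05, and 0 in Pe_M against Pe_F, with 0 at that level. The shares of all genes above belong to fits of all 28 libraries. None is given for this style alone, so the 21 are not read as a result about the members.

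Genes that work with the matrix proteins were read from 5 lists, in the fit where 5.59% of all genes were called higher and 5.91% lower. Among 22 tested genes of collagen maturation, Plod3, a lysyl hydroxylase, rose (0.24 ± 0.07, SE) and Mia3, which loads procollagen into transport vesicles, fell (-0.34 ± 0.08). Among 14 basement membrane partners, Hspg2, perlecan, rose (0.55 ± 0.15) and Ntn1, a netrin, fell (-0.81 ± 0.23). Of 22 matrix receptors, 2 fell: the integrin chain Itga8 (-0.78 ± 0.20) and the collagen receptor Ddr2 (-0.73 ± 0.18). Of 28 glycoproteins and proteoglycans, 4 fell and 0 rose, Dcn and Ecm1 having the smallest p (-1.08 ± 0.22 and -0.79 ± 0.16). Of 20 other proteases and inhibitors, Plaur, the urokinase receptor, and Adam12, a membrane protease, rose (0.77 ± 0.23 and 0.79 ± 0.25). All are log2 fold changes with the animal as a block, at an adjusted p from 0.00758 to 0.0499 (edgeR).

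Cell type markers moved in the same comparison, in which 5.91% of all genes were called lower and 5.59% higher. Of 15 markers of stellate cells and fibroblasts, 7 were called lower, Lrat and Reln among them, and 1 higher, the contractile gene Acta2. Their summed level ran from 95.1 to 345.7 CPM in tumours and from 133.6 to 316.9 CPM in peritumour tissue, and it was highest in the F 2 tumour. Of 10 hepatocyte markers, 7 were called lower, with summed levels of 21520 to 51230 CPM in tumour and 19040 to 65170 CPM in peritumour tissue. Of 9 vascular endothelial markers, Apln was called higher, and of 8 sinusoidal ones 3 were called lower. No marker of these lists was at 0 in all libraries, and their part in the matrix results was not tested.

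RefSeq promoter windows on GRCm38.p6 were found for 76 of the 110 members. The E-box CACGTG, a motif that Myc binds, was in a window of 2 of the 76 (2.63%), Adamts17 and Mmp7, against 8.09% of all genes with a window. The Mmp7 window shown above does not hold it, so that match lies in another window of the gene. The GC box GGGCGG was found for 48 (63.2%, against 38.2%) and CCAAT for 22 (28.9%, against 41.1%). Both strands were searched, and a gene with several windows counted once. A match is only a match of letters.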

How the data were processed

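Poly(A)-selected RNA of 14 tumour and 14 peritumour mouse liver libraries was sequenced, per the labels' protocols. The tools, per the submitters' processing notes and given there without roles, include RSEM 1.2.12, Bowtie2 2.2.5, HISAT2 2.0.4 and DESeq2 1.4.5. The authors deposited estimated counts and TPM per gene and library, per the file headers; 8.06% of the estimated counts are not whole. Another 28 columns, of FPKM, were not used. No source used here says if the libraries keep strand, so reads of overlapping genes cannot be told apart. In 26 cases a symbol that had turned into a date was restored by gene ID; 1 line without an ID was left out. Coordinates are those of the deposited table, and strands and windows are those of RefSeq.

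Estimated counts were rounded and tested with edgeR 4.0.16 (R 4.3.3): TMM factors (0.809 to 1.36), filterByExpr on the 4 groups, a robust quasi-likelihood fit, and adjustment after Benjamini-Hochberg across 14117 genes. The SE is the log2 fold change over the root of the F statistic. Over all libraries, code style and letter were covariates; the other fit had the animal as a block. Group contrasts came from 1 fit with code style. The shared code is taken as the animal. Deviations of paired libraries from the means of their group within 1 code style correlated at 0.136 to 0.596 (unpaired median -0.02). Of 14 tumours, 8 correlated best with their own peritumour library. The biological coefficient of variation was 0.270 with the block and 0.382 without it. No libraries of a group agreed within sampling noise. Nothing says which pieces of tissue were taken, so p-values measure the spread between these samples.

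Named members are those called over all pairs or between groups, the most abundant of each class and 22 fixed ones; others were named after their values were seen. 1 member is counted but not reported here. Members, classes and lists were chosen with earlier results of these data known. Alternatives were RLE factors, library size alone, no filter, DESeq2 1.42.0, each pair left out, pairs F 2, F 5 and F 6 left out, 1 code style alone, no covariates and 1 letter alone. The fits were tested on simulated data.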

Additional observations from a re-analysis of the deposited data

How the results depend on the processing

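Both the counts of members called and the fold changes moved with the settings. The paired median log2 fold change over members went from -0.17 to -0.42 without pairs F 2, F 5 and F 6. With 1 pair left out, the paired log2 fold change of Col1a1 ran from -0.20 to 0.04 and that of Mmp2 from -0.55 to -0.19. That of Col14a1 stayed between -0.56 and -0.42. Over all libraries without the block, 2 members were called; the count was 0 without the filter on low counts and in either code style alone, 1 without covariates, 5 with DESeq2, and 6 without pairs F 2, F 5 and F 6. With 1 pair left out it was 3 without M 1, 2 without F 5 and 0 without any of the other 12. With the replicate block it was 7. That paired count was 11 with DESeq2, 0 in the first code style alone, 3 in the second alone, and 29 without pairs F 2, F 5 and F 6; it ran from 4 (without F 7, F 8 or F 9) to 12 (without F 5) when 1 pair was left out. For Tu_F against Pe_F, 1 member was called, 6 with the replicate block and 5 with DESeq2. It was 0 with library size alone, without the filter, without pairs F 2, F 5 and F 6, in either code style alone and in a fit to the F libraries alone, and 0 to 1 without 1 pair. Tu_M against Tu_F went from 0 to 1 with DESeq2. Without pairs F 2, F 5 and F 6, the pairs with its largest rises, the paired log2 fold change of Lamb1 turned from 0.04, uncalled, to -0.41, called. The other comparisons between groups stayed at 0 under every alternative run. Scaling by library size alone moved the median of all genes by 0.05. Fold changes of members near 0 CPM, such as Adamts3, rest on few counts.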
